A study of Arabidopsis thaliana with 4 samples.

Results

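Genes of the mitochondrial genome were described in 4 ATH1 arrays of Arabidopsis thaliana, a probe-set microarray of this plant. The genes were taken from the platform annotation as probe sets with exactly 1 gene whose lower-case symbol was nad, cox, ccb, orf or atp and a digit, or cob or matR. This gave 22 probe sets of 15 genes, among 22746 probe sets analysed in all. Of the 22, 15 probe sets belonged to 8 genes of complex I, 2 to complex IV, 4 to cytochrome c maturation and 1 to the intron maturase. The symbols of all 22 were found among the mitochondrial genes that RefSeq gives for assembly TAIR10.1. RefSeq holds 24 mitochondrial genes under the symbols used. The other 9, namely nad3, cob, cox3, atp1, atp4, atp6, atp8, atp9 and ccmC, had no probe set of their own here, so complex III and the ATP synthase have no member. Probe sets that the annotation gives to some of them together with a nuclear locus are kept apart from the 22. Among the 22, 4 still have names ending in _s_at, which marks sets shared by several transcripts. These are the sets of matR, nad6 and ccb452 and set 257338_s_at of nad5. The annotation names 1 gene for each, and what else their probes match was not checked. A further 2 upper-case symbols, COB and CCB3, belong to nuclear genes and were not taken.

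The 4 groups were gpa1 with abscisic acid (ABA), gpa1 without ABA, Wassilewskija wild type (WS, ecotype ws-2) with ABA, and WS without ABA. Each was 1 array from a pool of 10 whole plants, 10 days old, and ABA, a hormone of drought and seed dormancy, was given at 100 µM for 3 h. The gpa1 plants are a line in the same ecotype, labelled with a T-DNA insertion into At3g26300. The labels do not say whether the plants without ABA had a mock treatment. No group had a replicate, so the number of arrays limits every value, and in whole plants fewer cells of a type and less RNA per cell cannot be told apart.

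The plant mitochondrial genome keeps a small set of genes for the respiratory chain, for the maturation of cytochrome c and for the mitochondrial ribosome, while most respiratory subunits come from the nucleus. Its transcripts are spliced and edited in the organelle, and nad1, nad2 and nad5 are each assembled by trans-splicing of separately transcribed pieces. Plant mitochondrial messengers carry no stable poly(A) tail, and a tail added to them marks them for decay. Here the RNA was labelled from an oligo(dT) primer, so the intensities show how much of each RNA that primer caught and need not follow the total amount.

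Intensities are the authors' linear values, and those under about 19, the 30th percentile over all arrays, were raised to that floor before log2 was taken. Of the 22 probe sets, 9 lay above the floor on all 4 arrays, 7 on some arrays and 6 on none. The number above the floor was 13 on gpa1 ABA, 13 on gpa1 control, 11 on WS ABA and 11 on WS control. Between 69.1% and 71.4% of all analysed probe sets lay above the floor on an array. The label could thus be checked for some members only. Of the marker genes named for the set, ccb382 was bright on every array, with 499.9 to 550.0, while nad4L exceeded the floor on gpa1 control alone, at 24.4, against 15.9 to 18.0 on the other arrays. Intensities of different probe sets depend on their probes and were not set against each other.

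**Figure D1:**
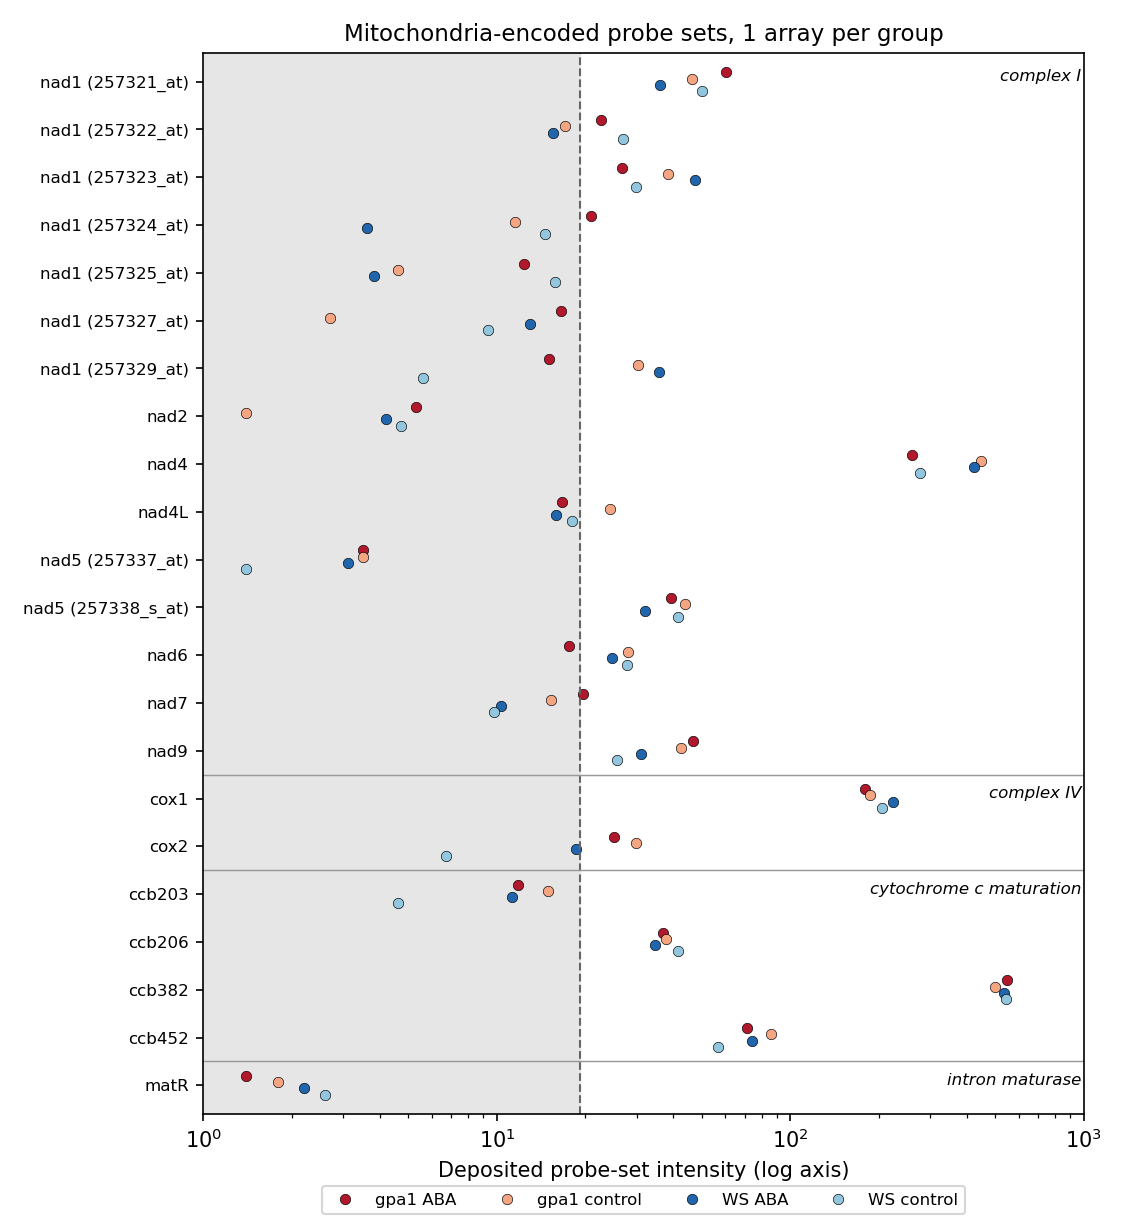
Deposited intensity (log axis) of each of the 22 mitochondria-encoded probe sets on the 4 arrays, 1 point per array, with the floor as a dashed line and values below it on grey. Genes are grouped by role, and 6 probe sets lie wholly on grey while 9 lie wholly to the right of the line.

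For the arrays as a whole, leaf and root markers were both present, with RCA, the Rubisco activase, at 4082.4 to 5487.2 and the root-hair expansin EXPA7 at 42.4 to 80.3. At the labelled insertion locus, which RefSeq names CYP71B34, the intensity was 105.4 and 116.7 on gpa1 ABA and gpa1 control, against 121.6 and 105.4 on WS ABA and WS control. RefSeq gives GPA1, a G protein alpha subunit gene, another locus, AT2G26300, so the label and the name of the line point to different genes. No probe set carried the name GPA1 in the annotation used, and its level was not checked here. Among readings of the arrays themselves, the 25S ribosomal RNA spanned 958.7 to 2235.9 and the geometric mean of 9 spike-in controls 394.52 to 686.59. The actin ratio, of the probe set at the 3-prime end over that at the 5-prime end, spanned 6.09 to 8.71.

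The first comparison asked whether ABA changed the mitochondrial transcripts over both genotypes. Of the 13647 probe sets bright enough to be tested, 42.7% passed with ABA, and 0 of the 9 mitochondrial ones did. The test was limma with treatment and genotype as terms, two-sided, with Benjamini-Hochberg adjustment over all tested probe sets at 0.05. All 9 had averaged log2 changes between -0.27 and 0.20, with a median of 0.04, against a median of -0.16 over all tested probe sets. At an unadjusted p under 0.05 the count was also 0 of 9, where 49.2% of all tested probe sets had one. None of the 9 reached a 2-fold change in gpa1 or in WS alone, where 14.7% and 15.3% of all tested probe sets did. The 9 probe sets cover 8 genes, and each was above the floor on all 4 arrays.

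In complex I, which takes electrons from NADH, nad4 encodes one of the proton-pumping subunits of the membrane arm. It read 259.3 on gpa1 ABA and 447.7 on gpa1 control, against 423.9 on WS ABA and 277.7 on WS control. Its signal was 1.73-fold lower with ABA in gpa1 and 1.53-fold higher with ABA in WS. On the log2 scale the averaged change was therefore small, -0.09 ± 0.15 (SE), and its limma adjusted p was 0.671. That SE rests on the spread pooled over probe sets and hides how far the 2 genotypes lay apart, since the residual SD of nad4 itself was 0.70.

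The gene nad9 encodes a subunit of the peripheral arm of complex I. It read 46.5 on gpa1 ABA and 42.5 on gpa1 control, against 30.9 on WS ABA and 25.7 on WS control. The ABA arrays were the brighter ones in both genotypes, by 0.13 in gpa1 and 0.27 in WS on the log2 scale, and the averaged change of 0.20 had a 95% interval from -0.32 to 0.71 and a limma adjusted p of 0.573.

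The subunit nad5 is another proton-pumping part of the membrane arm and had 2 probe sets. Set 257338_s_at read 39.3 on gpa1 ABA and 43.9 on gpa1 control, against 31.9 on WS ABA and 41.5 on WS control. It was lower with ABA in both genotypes and had the lowest averaged change of the 9, -0.27, with a 95% interval from -0.78 to 0.24 and a limma adjusted p of 0.416. Set 257337_at read 1.4 to 3.5 and stayed under the floor on every array, so it gives no response to set beside that one.

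The 7 probe sets of nad1, a membrane-arm subunit next to the quinone site, went different ways. Set 257321_at read 60.3 on gpa1 ABA and 46.1 on gpa1 control, against 36.0 on WS ABA and 50.2 on WS control. Set 257323_at read 26.8 on gpa1 ABA and 38.3 on gpa1 control, against 47.5 on WS ABA and 29.9 on WS control. The first was thus higher with ABA in gpa1 and lower in WS, and the second the reverse, and their averaged changes of -0.05 and 0.08 had limma adjusted p-values of 0.902 and 0.847.

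The other 5 sets of nad1 were too dim to be tested. Set 257329_at read 15.1 on gpa1 ABA and 30.4 on gpa1 control, against 35.6 on WS ABA and 5.6 on WS control. It followed 257323_at, at least 1.58-fold below its control in gpa1 and at least 1.85-fold above it in WS. Set 257322_at read 22.7 on gpa1 ABA and 17.1 on gpa1 control, against 15.5 on WS ABA and 27.0 on WS control, and so followed 257321_at, at least 1.18-fold above its control in gpa1 and at least 1.41-fold below it in WS. Set 257324_at passed the floor on gpa1 ABA alone, at 20.9, and 257325_at and 257327_at passed it nowhere. No level of nad1 as a whole can be given from sets that disagree, and no source used here says which piece of the trans-spliced transcript each set covers.

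Of the remaining complex I genes, nad6, a membrane subunit, read 17.6 on gpa1 ABA and 27.9 on gpa1 control, against 24.7 on WS ABA and 27.7 on WS control. It was at least 1.45-fold lower with ABA in gpa1 and 1.12-fold lower in WS, and it was too dim to be tested. The peripheral-arm gene nad7 passed the floor on gpa1 ABA alone, at 19.6, and read 15.3 on gpa1 control, 10.3 on WS ABA and 9.8 on WS control. The membrane-arm gene nad2 read 1.4 to 5.3 and was under the floor throughout.

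Complex IV passes electrons to oxygen, and cox1 encodes its catalytic subunit. It read 180.4 on gpa1 ABA and 186.5 on gpa1 control, against 224.0 on WS ABA and 205.5 on WS control. The averaged ABA change was 0.04 ± 0.15 (SE), and its limma adjusted p was 0.865. The 95% interval spanned 0.837-fold to 1.26-fold. The gene cox2 encodes the subunit that receives electrons from cytochrome c. It read 25 on gpa1 ABA and 29.7 on gpa1 control, against 18.6 on WS ABA and 6.7 on WS control, both of the WS values lying under the floor.

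The ccb genes act in the assembly of cytochrome c, where haem is carried across the membrane and joined to the protein. Pieces of the haem lyase are encoded by ccb382, ccb452 and ccb203, which RefSeq names ccmFN1, ccmFC and ccmFN2, and a membrane subunit of the transport system by ccb206, named ccmB. The narrowest relative range of the 9 was that of ccb382, with 550.0 on gpa1 ABA and 499.9 on gpa1 control, against 534.5 on WS ABA and 542.0 on WS control. Its averaged ABA change of 0.06 ± 0.14 (SE) had a 95% interval from 0.856-fold to 1.27-fold and a limma adjusted p of 0.776.

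The probe set of ccb206 read 36.9 on gpa1 ABA and 37.7 on gpa1 control, against 34.7 on WS ABA and 41.4 on WS control. Its averaged change was -0.14, with a limma adjusted p of 0.693. The probe set of ccb452 read 71.2 on gpa1 ABA and 86.2 on gpa1 control, against 74.0 on WS ABA and 56.8 on WS control, and its averaged change of 0.05 had an adjusted p of 0.873. ABA thus went with a 1.21-fold lower value in gpa1 and a 1.30-fold higher one in WS. Both ccb203, at 4.6 to 15, and matR, the intron maturase encoded within a nad1 intron, at 1.4 to 2.6, were under the floor on every array.

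**Figure D2:**
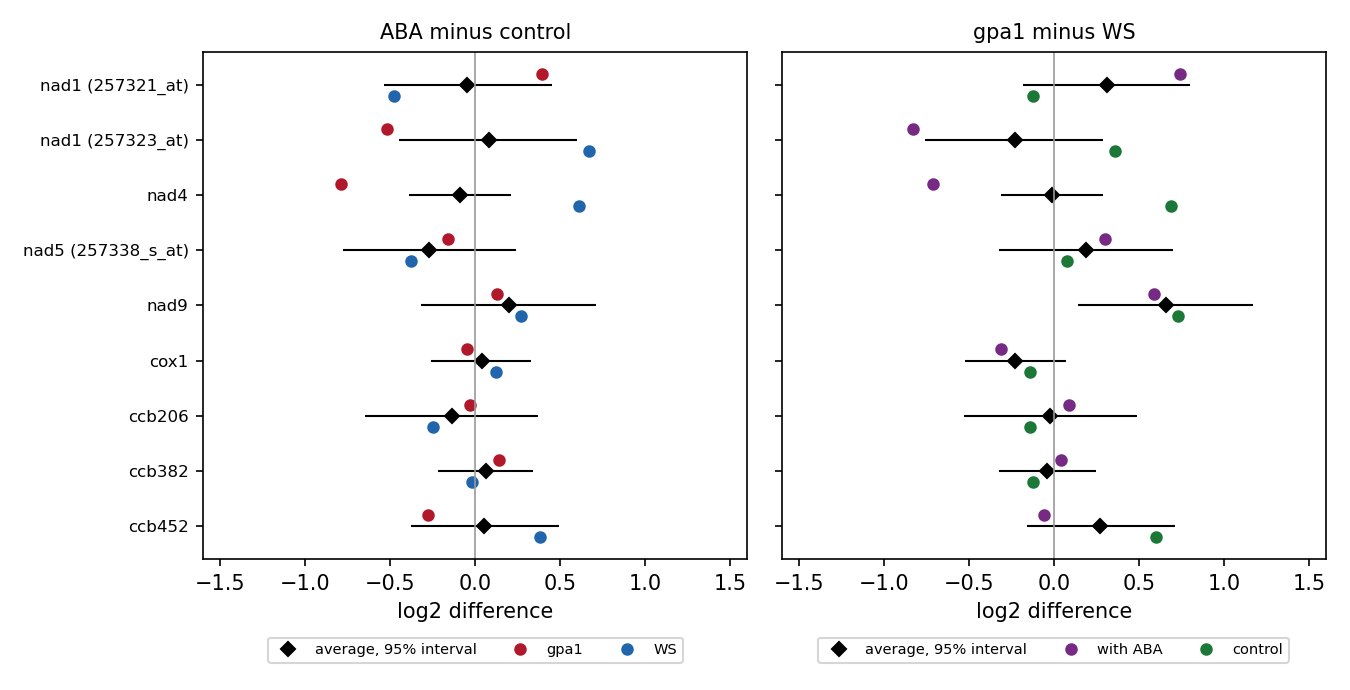
Log2 differences of the 9 tested mitochondrial probe sets, for ABA minus control (left) and gpa1 minus WS (right). Diamonds are the averages with the 95% interval of limma, and coloured points the 2 comparisons of single arrays behind each; all 9 intervals on the left cross 0, and on the right that of nad9 does not.

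The second comparison asked whether the mitochondrial transcripts differed by genotype over both treatments. A difference between the 2 lots of plants would fall on the same arrays and cannot be told apart from it. With limma, 0 of the 9 passed, where 2.90% of all tested probe sets did, and 1 of the 9 had an unadjusted p under 0.05, or 11.1%, a share near the 11.2% of all tested probe sets. That was nad9, 0.59 higher in gpa1 with ABA and 0.73 higher in gpa1 without on the log2 scale. The averaged difference was 0.66 ± 0.26 (SE), with a 95% interval from 0.14 to 1.17, an unadjusted limma p of 0.0126 and an adjusted p of 0.219, so it failed the correction. When the floor was moved to the 45th percentile the difference was 0.26, with a limma adjusted p of 0.753, and 0 of the 9 had an unadjusted p under 0.05.

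The other 8 had averaged differences from -0.23 for cox1 and for nad1 set 257323_at to 0.31 for nad1 set 257321_at, and the median of the 9 was -0.01. The difference was 0.27 for ccb452, 0.19 for nad5, -0.01 for nad4, -0.02 for ccb206 and -0.04 for ccb382. None reached 2-fold between gpa1 and WS with ABA, where 1.76% of all tested probe sets did, or without ABA, where 1.14% did. Among the dim members, cox2 was at least 1.30-fold higher in gpa1 with ABA and at least 1.55-fold higher without. The scanner background was 67.04 and 67.65 on the gpa1 arrays, against 69.51 on WS ABA and 56.26 on WS control, and its part in the low values of nad9 and cox2 on WS control was not tested.

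The third comparison set the ABA response of gpa1 against that of WS, with no test since each response rests on 2 arrays. Of the 9 tested members, 6 had responses of opposite sign in the 2 genotypes, where 21.4% of all tested probe sets did. The latter include the 42.7% that passed with ABA, and a change shared by both genotypes gives responses of like sign. Among the 6, both responses were near 0 for cox1, -0.05 in gpa1 and 0.12 in WS, and for ccb382, 0.14 and -0.02. The response in gpa1 minus the response in WS reached 1 or more in size for 2 of the 9, nad4 with -1.4 and nad1 set 257323_at with -1.18, where 3.03% of all tested probe sets did. The other 7 ran from -0.66 for ccb452 to 0.87 for nad1 set 257321_at. The value for 257323_at was -0.39 when the floor was moved to the 45th percentile.

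These values split the arrays across both factors. For nad4, ccb452 and nad1 set 257323_at, gpa1 ABA and WS control were both below gpa1 control and WS ABA, which holds for 3 of the 9 and for 7.12% of all tested probe sets. For ccb382 and nad1 set 257321_at they were both above, which holds for 2 of the 9 and for 6.91% of all. Some of the array readings split in the same way. The 25S ribosomal RNA read 1800.2 on gpa1 ABA and 1549.8 on gpa1 control, against 958.7 on WS ABA and 2235.9 on WS control.

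The spike-in controls were at 641.13 on gpa1 ABA and 455.75 on gpa1 control, against 394.52 on WS ABA and 686.59 on WS control. The actin ratio ran the other way, as nad4 did, with 6.76 on gpa1 ABA and 8.71 on gpa1 control, against 8.55 on WS ABA and 6.09 on WS control. The corresponding ratios of GAPDH, 1.89 to 2.14, and of ubiquitin, 2.08 to 2.91, gave other orders of the arrays. The scanner background was lower on gpa1 ABA and WS control, 67.04 and 56.26, than on gpa1 control and WS ABA, 67.65 and 69.51. Of the tissue markers, RCA read 5173.2 and 5487.2 on gpa1 ABA and WS control, against 4330.1 and 4082.4 on the others. EXPA7 read 70.2 and 80.3, against 48.1 and 42.4. The leaf markers LHCB4.1, LHCB4.2 and LHCB4.3 and the root marker EXPA18 split in neither way. The part of all these readings in the responses of nad4, nad1 and ccb452 was not tested.

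**Figure D3:**
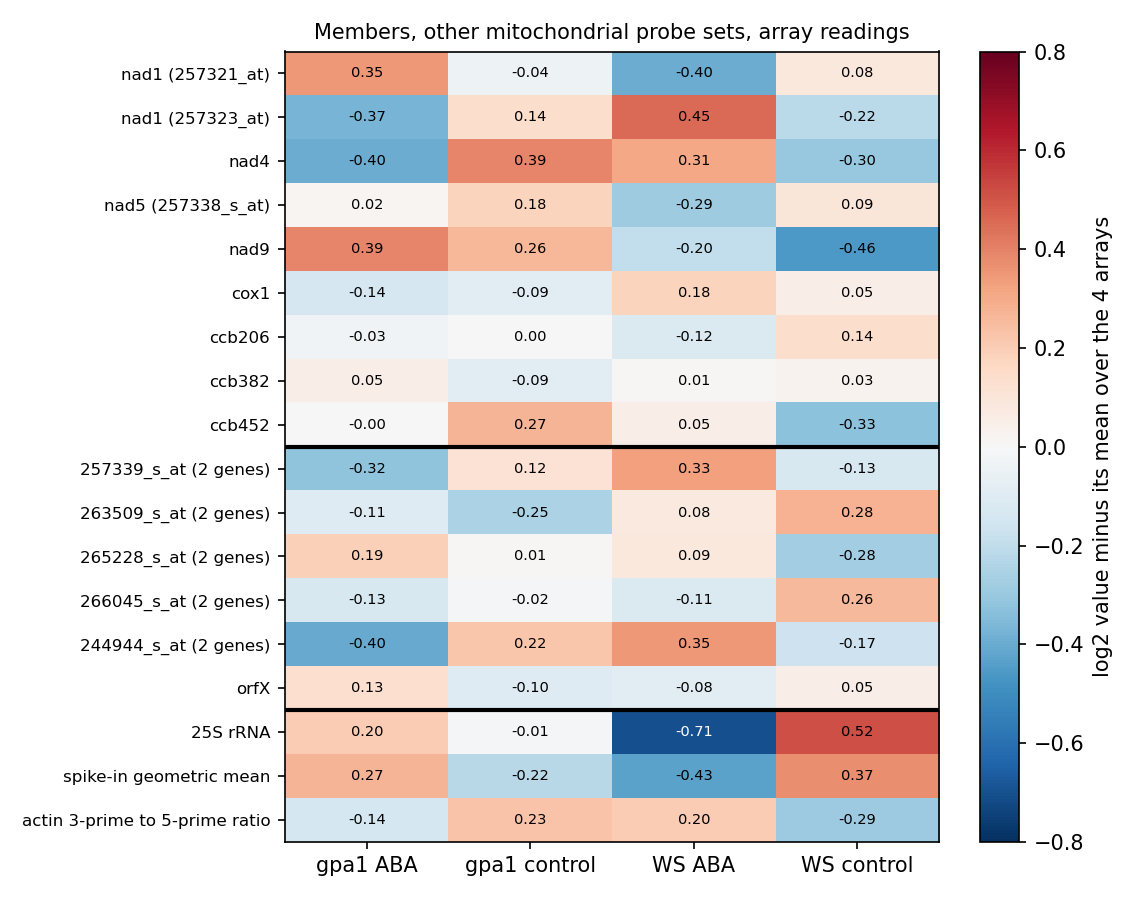
Log2 value minus its mean over the 4 arrays (colour and printed number) for the 9 members above the floor on all arrays (top), 6 other probe sets with a mitochondrial symbol (middle) and 3 array readings (bottom). For nad4, nad1 set 257323_at and the actin ratio, gpa1 ABA and WS control are both negative, and for the 25S ribosomal RNA and the spike-in controls both are positive.

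Chloroplast genes, whose messengers likewise carry no stable poly(A) tail, were set beside the mitochondrial ones. Of 68 tested chloroplast-encoded probe sets, 1 passed with ABA and was lower, or 1.47%, and their median averaged change was -0.12. That one was rps16, a ribosomal protein gene, with an averaged change of -0.48 and a limma adjusted p of 0.0119. The next largest averaged changes, of ycf4, ndhF and petN, were -0.38, 0.38 and 0.37 and did not pass. Those of ndhF and petN hide opposite responses, -1.12 in gpa1 and 1.88 in WS for ndhF, and -0.37 and 1.10 for petN. For ndhF the response in gpa1 minus that in WS was -3.00, its own residual SD was 1.50, and its intensities were 22.1 to 81.4. By genotype, 4 of the 68 passed, or 5.88%, against 2.90% of all tested probe sets, and all 4 were lower in gpa1 on average. These were petN, ycf3, ndhG and petG, with averaged differences from -0.71 to -0.52. The genes ycf3, ndhG and petG were lower in gpa1 both with and without ABA. For petN the difference was -1.28 with ABA and 0.18 without, and its own residual SD was 0.73. In 46 of the 68, or 67.6%, the 2 responses had opposite signs, against 66.7% of the mitochondrial and 21.4% of all tested probe sets.

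The direction was mixed in both organelles. Among the mitochondrial probe sets with opposite signs, 4 had a lower value with ABA in gpa1 beside a higher one in WS, and 2 the reverse, while among the chloroplast ones 11 and 35 did so. Across probe sets the responses of gpa1 and WS had a Pearson correlation of -0.75 over the 9 mitochondrial and -0.76 over the 68 chloroplast probe sets, and of 0.86 over all 13647. These correlations describe 4 arrays, and probe sets on the same arrays are not independent replicates. The 13647 include the 42.7% that passed with ABA, against 0 of the 9 mitochondrial and 1 of the 68 chloroplast probe sets. A change shared by both genotypes gives responses of like sign and raises a correlation, so these sets are not alike in that respect. No correlation over the probe sets that did not pass is given here.

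A list of nuclear genes of respiration held 53 genes, for which 15 probe sets were named here and 11 were tested. By the limma test 4 of the 11 passed with ABA, or 36.4%, against 42.7% of all tested probe sets, either direction counted. All 4 rose and 0 fell, while of all 13647 tested probe sets 2327 rose and 3507 fell. The external NADH dehydrogenase NDB2, which feeds electrons into the chain past complex I, read 410.3 on gpa1 ABA and 111.4 on gpa1 control, against 417.3 on WS ABA and 123.6 on WS control. It rose 3.68-fold in gpa1 and 3.38-fold in WS, and the averaged change was 1.82 ± 0.15 (SE), limma adjusted p 4.74e-24.

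The cytochrome c gene CYTC-2 rose 2.26-fold in gpa1 and 1.78-fold in WS, and the complex II flavoprotein gene SDH1-1 rose 1.62-fold and 2.21-fold in the same order. The fourth, named after its value was seen, was SDH2-1, the complex II iron-sulfur gene, with an averaged change of 0.39 and a limma adjusted p of 0.0202. NDB1, a related external dehydrogenase, had -0.56 and an adjusted p of 0.0502. The median over the 11 was 0.13. Whether the nuclear list differs from the mitochondrial one was not tested.

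By genotype, 1 of the 11 passed, CYTC-2, with an averaged gpa1 minus WS difference of -0.53 and a limma adjusted p of 0.0118. That was 9.09% of the list, against 2.90% of all tested probe sets. With any 1 array left out, fewer than 4 rose with ABA, and a smaller share of all tested probe sets passed as well. Those fits drop the genotype term and leave only 1 array with or without ABA. A list of 61 nuclear genes for mitochondrial RNA and DNA had 3 named probe sets, of which OSB1, a single-stranded DNA-binding protein, was tested and did not pass, with -0.21 and a limma adjusted p of 0.492.

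**Figure D4:**
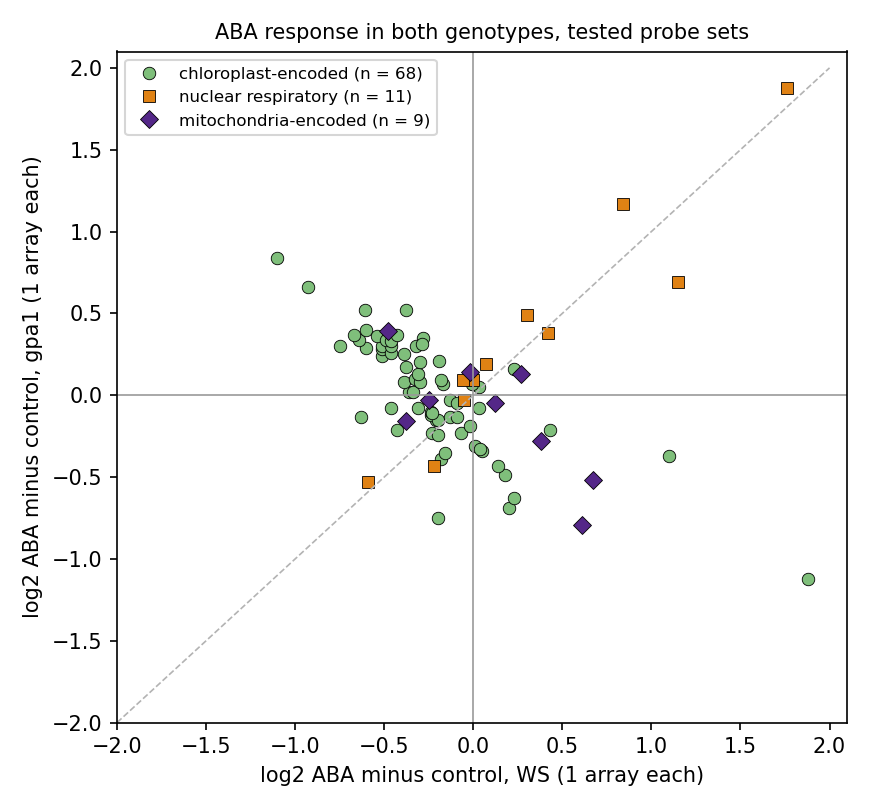
Log2 ABA minus control in gpa1 (vertical) against WS (horizontal) for tested probe sets, each axis from 2 single arrays, with the dashed line marking equal responses. Most of the 9 mitochondrial and 68 chloroplast probe sets lie across the dashed line, from upper left to lower right, and the 11 nuclear respiratory ones lie near it, with NDB2 at the upper right.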

How the data were processed

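The authors deposited 1 linear intensity for each of 22810 probe sets on each of 4 arrays. The 2%-trimmed mean of every array was 100, so the authors had scaled these intensities to a common level. No source used here names the summarising program. Per the labels' protocols, RNA was primed with oligo(dT) and hybridised as biotin-labelled cRNA. The 64 control probe sets were set aside. Arrays were scaled to 1 trimmed mean, floored at about 19 and put on the log2 scale. Probe sets whose mean log2 intensity exceeded its 40th percentile, 13647 in all, entered limma 3.58.1 under R 4.3.3, with eBayes and an intensity trend. The model leaves 1 residual degree of freedom, against a median of 171 prior degrees of freedom. Each SE therefore rests mostly on the spread pooled over probe sets of like intensity, and little on the probe set's own. For each factor, the levels of the other stand in for replicates. The fit was also run on simulated data, with noise drawn from its own fitted spread, so that run cannot show how it behaves on these arrays. A fold against a value at the floor is written "at least". The members and lists were chosen with earlier results of these data known. All members are named, and of each other list up to 4 tested genes with the largest averaged ABA change. Genes of those lists that passed with ABA or by genotype were named as well, after their values were seen. The platform annotation gave 1 gene for 13513 probe sets, several for 503 and none for 8730. The alternatives were other scalings, floors, filters, variance models, model terms and sets of arrays.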

Additional observations from a re-analysis of the deposited data

Results flagged for a closer look

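Each value here is the ABA response in gpa1 minus the ABA response in WS on the log2 scale, for a tested mitochondrial probe set whose response had opposite signs in the 2 genotypes. With 1 array per group, none of these differences was tested, and opposite signs are easily reached where both responses are small. The value was -1.4 for nad4, -1.18 for nad1 set 257323_at and -0.66 for ccb452, so that ABA went with lower values in gpa1 and higher ones in WS. It was -0.17 for cox1, in the same direction. It was 0.87 for nad1 set 257321_at and 0.16 for ccb382, the other way round.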

How the results depend on the processing

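No mitochondrial probe set passed with ABA or by genotype in any of 12 alternatives. The lowest adjusted p among them was 0.181 for ABA and 0.163 for genotype. The fit without the filter on dim probe sets called 0% of all probe sets and so says nothing of the members. The filter at the 60th percentile left 4 members. With 1 array left out, 8.55% to 11.2% of all probe sets passed with ABA, and 0% by genotype, as in the fit with genotype alone, so the genotype count of 0 says little there. Several averaged ABA changes near 0 changed sign. Quantile normalization gave -0.02 for ccb382, 0.02 for ccb206 and 0.10 for nad1 set 257321_at, for which median centring gave 0.03. The fits with 1 array left out hold treatment alone or genotype alone, so a change in them mixes in the other factor. In these fits the ABA change ran from -0.44 to 0.27 for nad4 and from -0.17 to 0.56 for nad9. It ran from -0.25 to 0.35 for ccb452 and from -0.12 to 0.19 for cox1. For nad1 it ran from -0.42 to 0.33 on set 257321_at and from -0.34 to 0.49 on set 257323_at. The genotype difference ran from -0.11 to 0.03 for ccb382, from -0.40 to 0.38 for nad4, from -0.15 to 0.10 for ccb206 and from -0.57 to 0.10 for nad1 set 257323_at. The alternatives for the nuclear respiratory genes were added after seeing the data. Without the intensity trend 3 of these genes rose, where 37.8% of all tested probe sets passed with ABA in either direction. In the fit with treatment alone 3 rose, where 30.9% of all passed in either direction. In the fit without the filter 0 rose. When the 45th percentile was the floor 1 fell, and without the trend 1 fell. No paired analysis was possible because the labels give no replicate numbers to pair by, beyond the comparison of treatments within each genotype that the fit already makes. Signal near background limits 13 of the 22 members, which were not tested.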

Other observations

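Mitochondrial symbols also stood on 6 probe sets annotated to 2 genes, each pairing a mitochondrial gene with a locus on chromosome 2, and these were left out of the set above. Of the 6, 4 were tested and 0 passed the limma test with ABA or by genotype, with averaged ABA changes from -0.24 to 0.27 on the log2 scale and 0 of the 4 at an unadjusted p under 0.05. For orfX, which RefSeq names mttB, a gene for a membrane transport protein, the intensity was 133.1 on gpa1 ABA and 112.9 on gpa1 control, against 114.7 on WS ABA and 125.8 on WS control. Its averaged ABA change was 0.05, with a limma adjusted p of 0.842. The 4 arrays of orfX thus lay within a narrow range, as those of ccb382 did.

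The probe set 257339_s_at, one of the 6, read 151.8 on gpa1 ABA and 205.8 on gpa1 control, against 238.7 on WS ABA and 173.9 on WS control, and 244944_s_at, which carries symbols of a pair of mitochondrial ribosomal protein genes, read 224.4 on gpa1 ABA and 345.1 on gpa1 control, against 377.8 on WS ABA and 263.9 on WS control. On both, gpa1 ABA and WS control were the dimmer arrays, as for nad4, and the ABA response in gpa1 minus that in WS was -0.90 and -1.14 on the log2 scale, with no test. The other tested sets with a mitochondrial symbol outside the 22 did not follow nad4. For orfX gpa1 ABA and WS control were the brighter arrays, with a difference of 0.37, and 263509_s_at, 266045_s_at and 265228_s_at, with 0.35, 0.26 and -0.18, split the arrays in neither way.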
